A study of Bombyx mori with 4 samples.

Results

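The data compared here were the unheated midguts of 2 silkworm (Bombyx mori) varieties. Variety 932, which the submitters call heat tolerant, was set against variety HY, which they call heat sensitive. A gene entered the comparison when it had at least 1 RPM (sequence tags per 1000000 tags of the library) in 1 of the 2 unheated libraries, and 2780 of the 5558 gene models in the table did so. The 932 control group and the HY control group each held 1 midgut library from day 2 of the fifth larval instar. A 932 heat library and an HY heat library, from larvae of the same age put at high temperature, were used only to show each gene a second time. Neither the temperature, the duration, the sex nor the number of larvae behind a library is given in the sources used here. With 1 library per group no p-value can be had, so every difference is between a pair of libraries and may include differences between the larvae sampled.

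The midgut of a leaf-eating caterpillar secretes proteases, lipases and glycosidases into a strongly alkaline lumen, which is held alkaline by a proton pump, the V-ATPase, in the apical membrane of goblet cells. Columnar cells carry the microvilli that release digestive enzymes and take up sugars and amino acids. A peritrophic matrix of chitin and chitin-binding proteins separates the food from these cells. The same epithelium detoxifies plant compounds and recognises gut bacteria and fungi through peptidoglycan and glucan recognition proteins.

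By totals recovered from the values, the 932 control library held 6139297 tags and the HY control library 5799074. On these totals 1 tag was worth 0.163 RPM in 932 and 0.172 RPM in HY. Tags listed under the gene models were 18.6% of the 932 library and 11.6% of the HY library. Genes above 0 numbered 3775 in 932 and 3601 in HY. The lowest value above 0 in either library was that of 2 tags, so a gene listed at 0 may have had none or 1. Of 14 models of the V-ATPase, the pump described above, none was listed at 0 in 932 and 3 were in HY. Of 11 peritrophic matrix models 1 was listed at 0 in 932 and 2 were in HY. Fibroin P25 of the silk gland was listed at 0 in both libraries. The only match to the silk gland names above 0 was the fibroinase precursor, with 24.3 RPM in 932 and 32.8 RPM in HY. By name it is an enzyme and not a silk protein, so it does not mark silk gland. Muscle markers, which a dissected gut wall carries, summed to 1085 RPM in 932 and 907 RPM in HY. Fat body name matches summed to 72.8 RPM in 932 and 37.4 RPM in HY, with 9 of their 14 models listed at 0 in 932 and 8 in HY. Of these sums, 45.3 RPM in 932 and 9.31 RPM in HY were those of BGIBMGA012788. By name it is a protease of 30K proteins and not a 30K lipoprotein, so the gap between the sums is not one of fat body markers. Sp2, a storage protein of the fat body, was not matched by the list pattern and is not in these sums. It had 1.47 RPM in 932 and 9.31 RPM in HY. Cuticle proteins, some of which the gut lining also makes, summed to 2713 RPM in 932 and 3495 RPM in HY. Haemocyte name matches summed to 18.9 RPM in 932 and 14.8 RPM in HY. The largest part was hemolin-interacting protein in 932, at 15.5 RPM, and hemolin in HY, at 10 RPM. Phenoloxidase subunit 2 had 0.33 RPM in 932 and 0.69 RPM in HY. These are whole-organ libraries, so fewer cells of a type and less RNA per cell cannot be told apart.

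Most digestive lipases and serine proteases were higher in 932, and most antimicrobial and recognition genes were lower. By ratio, the named genes furthest to the 932 side were BGRP4, MG7 and Srp9, and those furthest to the HY side were RpL32, PGRP S6 and a chitin binding domain 3 protein, all described below. By the ratio of 932 to HY after adding 1 RPM to each value, 499 genes (17.9%) were at least 2-fold higher in 932 and 419 (15.1%) were at least 2-fold lower. The other 1862 genes lay within 2-fold. The counts given for each gene list are to be read against these shares of all genes. The median log2 ratio over the 2780 genes was 0.05, with quartiles of -0.60 and 0.70. At 4-fold, 149 genes were higher and 110 lower, and at 16-fold 28 were higher and 18 lower. The 95% interval of the ratio of tags was exact (Clopper-Pearson), with no RPM added, and covered counting error only. For the counts that follow, a listing at 0 was taken as 1 tag. The interval lay wholly beyond 2-fold for 252 genes (9.06%) higher in 932 and for 190 genes (6.83%) lower. Of the 499 higher genes 153 were listed at 0 in HY, and of the 419 lower genes 161 were listed at 0 in 932.

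The share of higher genes was larger among the genes with most tags. Of the 217 genes with at least 100 RPM in either library, 59 (27.2%) were higher in 932 and 17 (7.83%) lower, with a median log2 ratio of 0.33. Among the 929 genes between 1 and 3 RPM, 150 were higher and 155 lower. The RPM listed under all gene models summed to 186231 in 932 and 115679 in HY, and in the heated libraries to 151859 in 932 and 149969 in HY. Of the difference of 70551 RPM, lipases made up 42349 RPM and serine proteases 11760 RPM (16.7%), together 76.7%. Without both families the sums were 127020 RPM in 932 and 110577 RPM in HY.

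**Figure D1:**
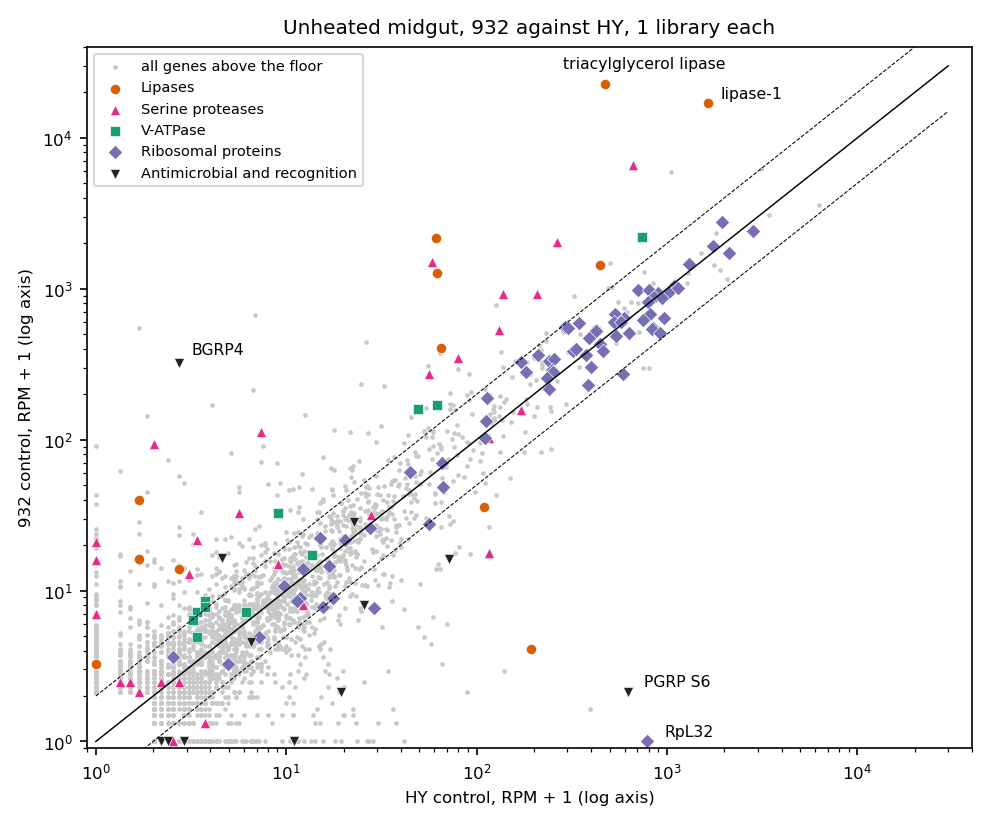
RPM + 1 of each gene in the 932 control library (vertical, log axis) against the HY control library (horizontal, log axis), 1 point per gene for the 2780 genes compared, with 5 gene lists coloured; the solid line marks equal values and the dashed lines 2-fold. Most lipases and serine proteases lie above the upper dashed line, most antimicrobial and recognition genes below the lower one, and the ribosomal proteins near the solid line but for RpL32.

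Digestive lipases, which release fatty acids from leaf lipids, were the list furthest to the 932 side. All 12 members above the floor (of 17 matched by name) were past 2-fold, 10 higher and 2 lower, and their median log2 ratio was 2.96 against 0.05 over all genes. They summed to 45383 RPM in 932 and 3035 RPM in HY. Triacylglycerol lipase (BGIBMGA010400) was the gene with most tags in the 932 library, at 12.3% of all listed RPM. It had 22885 RPM in 932 and 470.4 RPM in HY, and the log2 ratio was 5.60 with a tag interval of 5.55 to 5.66. After heat it had 3229 RPM in heated 932 and 2713 RPM in heated HY, so the varieties were close there and both heated libraries lay between the unheated pair. Lipase-1 (BGIBMGA002670) had 17097 RPM in 932 and 1635 RPM in HY, a log2 ratio of 3.39. It had 12105 RPM in heated 932 and 2427 RPM in heated HY, and 932 was the higher variety in both pairs.

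Both patterns recurred among the other lipases. A neutral lipase (BGIBMGA001508) had 2182 RPM in 932 and 60.2 RPM in HY without heat, and with heat 2938 RPM in 932 and 687 RPM in HY. Insect intestinal lipase 6 (BGIBMGA002669) had 1263 RPM in 932 and 60.7 RPM in HY without heat, and with heat 2200.3 RPM in 932 and 1075 RPM in HY. In both genes heated HY stood far above unheated HY, while 932 stayed the higher variety. Another neutral lipase (BGIBMGA001507) had 38.9 RPM in 932 and 0.69 RPM in HY, and with heat 30.5 RPM in 932 and 25.1 RPM in HY, so the variety gap was absent there. All 4 acidic lipases by name were higher in 932, with log2 ratios between 1.71 and 3.27. One neutral lipase (BGIBMGA003920) went the other way with a log2 ratio of -5.56. It had 3.09 RPM in 932 and 192 RPM in HY, and with heat 2.4 RPM in 932 and 217 RPM in HY. The other lower member, a pancreatic lipase-like protein, had 35 RPM in 932 and 108 RPM in HY, and with heat 44.4 RPM in 932 and 24.5 RPM in HY. In the heated pair, 5 of the 12 lipases were at least 2-fold higher in 932 and 1 was lower, against 12.2% and 18.4% of the same 2780 genes, with a median of 0.87.

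Serine proteases of the trypsin and chymotrypsin type, which cut dietary protein in the alkaline lumen, had 16 of 29 members higher in 932 and 3 lower, against 17.9% and 15.1% of all genes, with a median log2 ratio of 2.07. The list held 1 inhibitor by name, antitrypsin isoform 3, which had 30.5 RPM in 932 and 26.7 RPM in HY. Without it 28 members remained, 16 higher and 3 lower. The members summed to 13823 RPM in 932 and 2065 RPM in HY. Serine protease 36 (BGIBMGA008514), the member with most tags, had 6641 RPM in 932 and 663 RPM in HY, a log2 ratio of 3.32. It had 5575 RPM in heated 932 and 3693 RPM in heated HY, which left a log2 ratio of 0.59. Its namesake BGIBMGA008515 had 112 RPM in 932 and 6.38 RPM in HY, and with heat 63 RPM in 932 and 52.3 RPM in HY. A trypsin-like proteinase (BGIBMGA003605) had 1499.7 RPM in 932 and 57.4 RPM in HY, and with heat 803 RPM in 932 and 768 RPM in HY, so its log2 ratio was 4.68 without heat and 0.06 with it. The silk gland derived serine protease precursor by name (BGIBMGA004445) had 92.4 RPM in 932 and 1.03 RPM in HY, and with heat 43.9 RPM in 932 and 29.1 RPM in HY. For these 4 proteases the unheated HY library held the lowest of the 4 values.

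Other proteases kept the variety gap in both pairs. A chymotrypsin-like proteinase (BGIBMGA008279) had 19.9 RPM in 932 and was listed at 0 in HY, and had 12.5 RPM in heated 932 and was listed at 0 in heated HY. Serine protease 13 had 15 RPM in 932 and was listed at 0 in HY, and with heat 6 RPM in 932 and 2 RPM in HY. Trypsin BGIBMGA001320 had 534 RPM in 932 and 130.2 RPM in HY, and with heat 168 RPM in 932 and 20.1 RPM in HY. The lowest ratio in the list, -2.71, was that of a trypsin-like protein precursor (BGIBMGA013393), which had 16.8 RPM in 932 and 115 RPM in HY, and with heat 34.1 RPM in 932 and 128 RPM in HY. Over the list, 10 members were higher and 3 lower in the heated pair, 8 were higher in both pairs and 2 lower in both, and the heated median was 0.62.

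**Figure D2:**
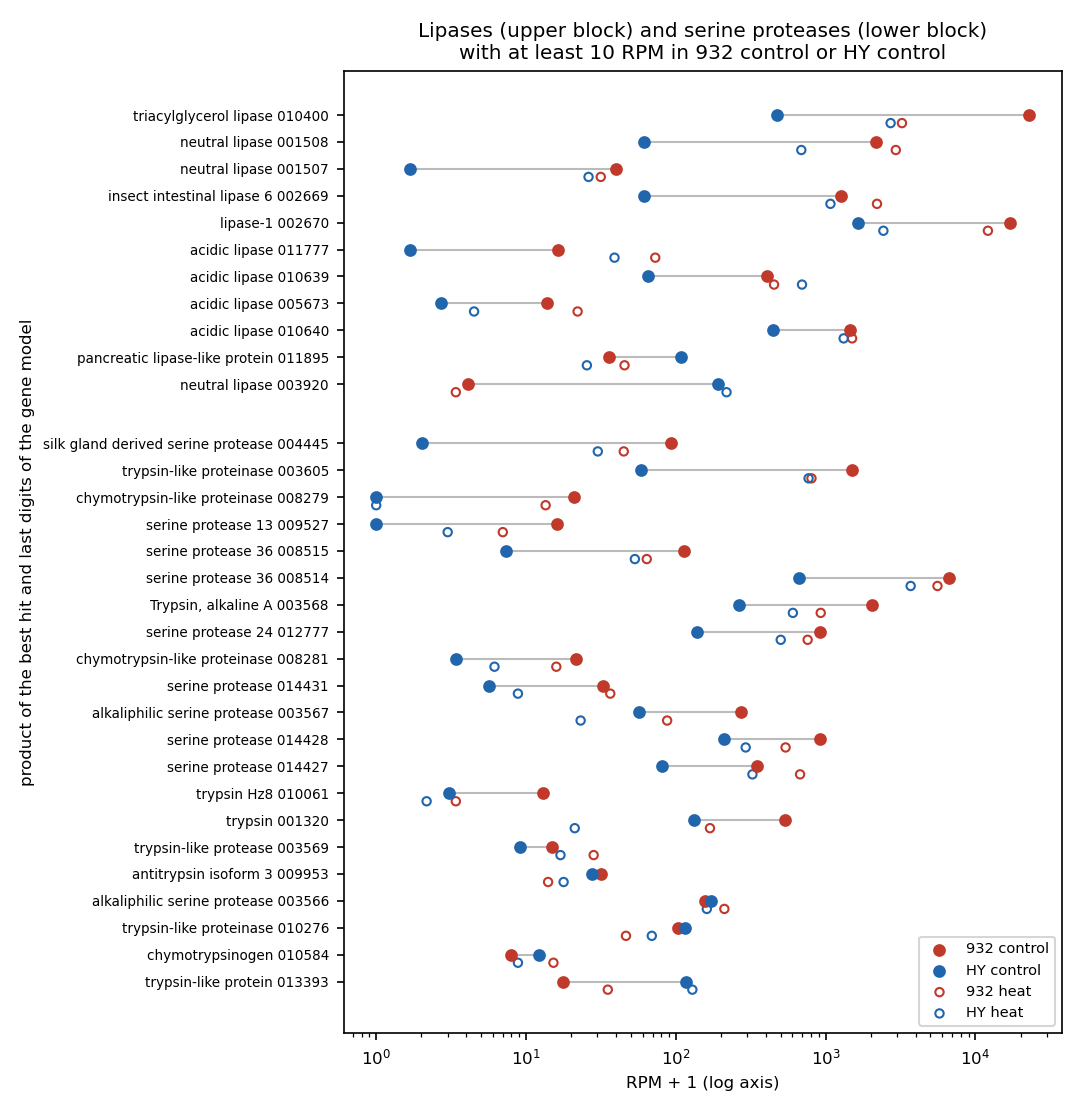
RPM + 1 (horizontal, log axis) of the 32 lipases and serine proteases with at least 10 RPM in 932 control or HY control, 1 row per gene, lipases above and serine proteases below; filled points are 932 control and HY control, joined by a line, and open points are 932 heat and HY heat. The unheated HY points lie far to the left for most rows, while the heated pair lies closer together, as for triacylglycerol lipase at 3229 and 2713 RPM.

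Aminopeptidases and carboxypeptidases, which finish protein digestion at the cell surface and in the lumen, had 11 of 29 members higher and 2 lower, with a median log2 ratio of 0.19. Midgut carboxypeptidase A1 (BGIBMGA009478), which trims residues from the carboxyl end of peptides, had 44 RPM in 932 and 0.86 RPM in HY. It had 50.1 RPM in heated 932 and 12.7 RPM in heated HY. Aminopeptidase N-5 (BGIBMGA008063) had 234 RPM in 932 and 23.8 RPM in HY, and with heat 198 RPM in 932 and 6.83 RPM in HY, so its log2 ratio was 3.24 without heat and 4.67 with it. Aminopeptidase P-like protein had 50.8 RPM in 932 and 8.28 RPM in HY, and with heat 18.7 RPM in 932 and 0.67 RPM in HY. These 3 enzymes were higher in 932 in both pairs, as were 8 of the 29 members. Xaa-Pro dipeptidase, which splits dipeptides that end in proline, had 16.1 RPM in 932 and 3.1 RPM in HY. A carboxypeptidase (BGIBMGA013276) had 47.4 RPM in 932 and 10.7 RPM in HY, and a vitellogenic carboxypeptidase by name had 4.24 RPM in 932 and was listed at 0 in HY. The member with most tags, Apn4, an aminopeptidase N of the brush border, was nearly level, as it had 1440.1 RPM in 932 and 1758 RPM in HY for a log2 ratio of -0.29. Of 7 aminopeptidase N models 1 was higher and none lower, while of 16 carboxypeptidase models 7 were higher and 2 lower.

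The carbohydrate digestion list had 7 of 17 members higher and 1 lower, with a median log2 ratio of 0.69. The 7 include a subunit of the endoplasmic reticulum and a lysosomal enzyme by name, given below, which are not digestive. Suc1, a beta-fructofuranosidase that splits sucrose, had 226 RPM in 932 and 31.6 RPM in HY. It had 218 RPM in heated 932 and 44.8 RPM in heated HY, so the gap was of like size in both pairs. Gal, a beta-galactosidase, had 70.4 RPM in 932 and 6.38 RPM in HY, and with heat 8.06 RPM in 932 and 176 RPM in HY. A beta-glucosidase (BGIBMGA005602) had 32.1 RPM in 932 and 13.8 RPM in HY, and the glucosidase II beta subunit, which trims glycans in the endoplasmic reticulum, had 7.98 RPM in 932 and 1.55 RPM in HY. A beta-mannosidase of lysosomes by name had 3.09 RPM in 932 and 0.86 RPM in HY. Trehalase, which splits the blood sugar trehalose, was the lower member; it had 54.4 RPM in 932 and 149 RPM in HY, and was within 2-fold after heat with 179 RPM in heated 932 and 203 RPM in heated HY. Alpha-amylase (BGIBMGA003056), which digests starch, had 185 RPM in 932 and 180.4 RPM in HY.

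Of 6 sugar transporters above the floor 5 were higher in 932 and none lower, with a median log2 ratio of 1.58. The most tags were those of BGIBMGA004511, which had 64 RPM in 932 and 16.2 RPM in HY, and BGIBMGA004615, which had 12.5 RPM in 932 and 3.45 RPM in HY. The 3 further higher members had 1.14 to 2.44 RPM in 932 and were listed at 0 in HY. None of the 4 amino acid transporters passed 2-fold, and their median was 0.31. A CD98hc amino acid transporter subunit by name had 37.8 RPM in 932 and 44 RPM in HY. The putative amino acid transporter with the symbol +nsd-2 had 71.5 RPM in 932 and 103 RPM in HY, and with heat 48.9 RPM in 932 and 16 RPM in HY.

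Proteins of the peritrophic matrix were more often higher than lower in 932 without heat, but not with heat. Of 9 members 4 were higher in 932 and 1 was lower, with a median log2 ratio of 0.98. In the heated pair 1 was higher and 3 were lower, with a median of -0.20. Peritrophin 1 (BGIBMGA001504), a chitin-binding protein, had 60.9 RPM in 932 and 0.34 RPM in HY. Insect intestinal mucin IIM1, a glycosylated matrix protein, had 168 RPM in 932 and 3.1 RPM in HY. With heat peritrophin 1 had 12.9 RPM in heated 932 and 3.66 RPM in heated HY, and IIM1 had 39 RPM in heated 932 and 26.5 RPM in heated HY, so in both genes 932 held fewer tags and HY more than without heat. Intestinal mucin SeM8 (BGIBMGA009809) had 13.7 RPM in 932 and 1.72 RPM in HY. Chitin deacetylase 5b, which removes acetyl groups from chitin, had 38.4 RPM in 932 and 14.5 RPM in HY. The member with most tags, peritrophic membrane chitin binding protein 1, had 6170.4 RPM in 932 and 3129 RPM in HY, just inside 2-fold at 0.98, and it had 1982 RPM in heated 932 and 5774 RPM in heated HY. The lower member was a chitin binding domain 3 protein (BGIBMGA009067), which had 0.65 RPM in 932 and 395 RPM in HY. With heat it had 4.46 RPM in heated 932 and 17 RPM in heated HY.

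Subunits of the V-ATPase were higher in 932 as a group in the unheated pair and level after heat. Of 11 subunits 7 were higher, none was lower, and the median log2 ratio was 1.08. Their sum was 2606 RPM in 932 and 890 RPM in HY. Subunit G, in the stalk of the pump, had 2196 RPM in 932 and 742 RPM in HY, and with heat 622 RPM in 932 and 498 RPM in HY. Catalytic subunit A, which hydrolyses ATP, had 31.6 RPM in 932 and 8.1 RPM in HY, and with heat 6.86 RPM in 932 and 6.99 RPM in HY. Subunit S1, an accessory subunit, had 159 RPM in 932 and 48.5 RPM in HY, and subunit E had 168 RPM in 932 and 61 RPM in HY. Subunit D had 7.49 RPM in 932 and 2.76 RPM in HY, and the 21 kDa proteolipid of the membrane ring had 6.19 RPM in 932 and 2.41 RPM in HY. In the heated pair 1 subunit, the 16 kDa proteolipid, was higher, none was lower and the median was -0.02.

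Genes of the mitochondrial respiratory chain and ATP synthase, which make the ATP that such a pump consumes, had 13 of 40 members higher and none lower, with a median log2 ratio of 0.58. The ATP synthase gamma subunit, the rotating shaft of the enzyme, had 145 RPM in 932 and 11.6 RPM in HY, and with heat 34.1 RPM in 932 and 13.7 RPM in HY. Cytochrome c oxidase subunit VIIc had 373 RPM in 932 and 63.3 RPM in HY, and with heat 192 RPM in 932 and 69.3 RPM in HY. Cytochrome c oxidase polypeptide IV had 292 RPM in 932 and 79 RPM in HY. By complex, 3 of 5 cytochrome c oxidase models, 3 of 9 ATP synthase models and 5 of 19 NADH dehydrogenase models were higher. Mitochondrial cytochrome c, the electron carrier, had 204 RPM in 932 and 71.4 RPM in HY, and with heat 30.5 RPM in 932 and 39.5 RPM in HY. The NADH:ubiquinone reductase 42 kD subunit had 381 RPM in 932 and 133 RPM in HY, the ESSS subunit had 29 RPM in 932 and 11.2 RPM in HY, and a putative NADH:ubiquinone dehydrogenase with the most tags of the list had 506 RPM in 932 and 232 RPM in HY. After heat 3 of the 13 were still higher, and the median of the list was -0.18.

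Glycolysis and the citrate cycle had 7 of 18 members higher and none lower, with a median log2 ratio of 0.49. A mitochondrial malate dehydrogenase by name had 7.33 RPM in 932 and 0.86 RPM in HY. Isocitrate dehydrogenase had 5.21 RPM in 932 and 0.86 RPM in HY, and a citrate synthase by name had 11.7 RPM in 932 and 5.35 RPM in HY. Among glycolytic enzymes, 1 aldolase (BGIBMGA012827) had 19.1 RPM in 932 and 6.73 RPM in HY, Tpi, triosephosphate isomerase, had 17.9 RPM in 932 and 6.9 RPM in HY, and pyruvate kinase had 3.09 RPM in 932 and 0.86 RPM in HY. The aldolase with most tags, BGIBMGA013021, was level, as it had 142 RPM in 932 and 131 RPM in HY. Of 12 ABC transporters, mostly ATP-driven exporters, 7 were at least 2-fold higher in 932 and none was lower; the median log2 ratio was 1.08 without heat and -0.08 with heat. The member with most tags, ATP-binding cassette sub-family B member 1, had 45.4 RPM in 932 and 19.7 RPM in HY, and an ABC transporter by name alone had 24.4 RPM in 932 and 29.3 RPM in HY. Of 2 models named sub-family A member 7, BGIBMGA007218 had 11.9 RPM in 932 and 5.52 RPM in HY, and BGIBMGA007217 had 3.42 RPM in 932 and was listed at 0 in HY. The 5 further higher members had under 3 RPM in 932. Members within 2-fold included Bm3 of subfamily G, which had 2.77 RPM in 932 and 4.14 RPM in HY.

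**Figure D3:**
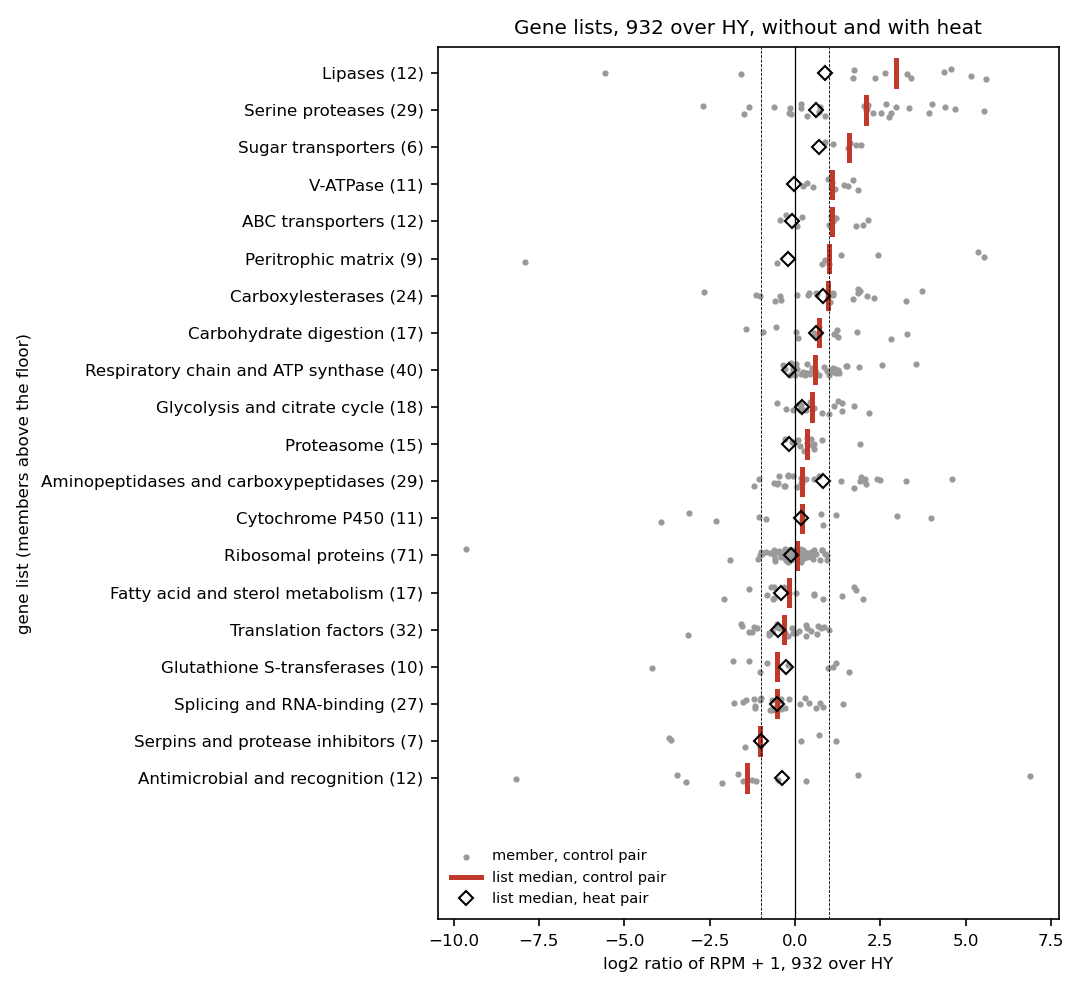
Log2 ratio of RPM + 1, 932 over HY (horizontal), for 20 gene lists, 1 row per list with its number of members above the floor; grey points are members in the unheated pair, red bars the list medians in the unheated pair and open diamonds the medians of the same members in the heated pair, and dashed lines mark 2-fold. Medians in the unheated pair run from 2.96 for lipases to -1.39 for antimicrobial and recognition genes, and those of the V-ATPase, ABC transporters and peritrophic matrix lie near 0 in the heated pair.

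Antimicrobial and recognition genes formed the list furthest to the HY side. Of 12 members 2 were higher in 932 and 8 lower, with a median log2 ratio of -1.39. In the heated pair 2 were higher and 5 lower, against 12.2% and 18.4% of the same 2780 genes. The heated median was -0.39, and 1 member was higher and 4 were lower in both pairs. Peptidoglycan recognition protein S6 by the files' name (BGIBMGA012866; its protein has the RefSeq symbol PGRP-S5), a secreted sensor of bacterial cell walls, had 1.14 RPM in 932 and 619 RPM in HY. The log2 ratio was -8.18 with a tag interval of -10.40 to -8.04. In the heated pair it had 7.72 RPM in heated 932 and 553 RPM in heated HY. PGRP-S1, also secreted, had 15.2 RPM in 932 and 70.5 RPM in HY, but was level after heat with 33.8 RPM in heated 932 and 32.1 RPM in heated HY. A membrane receptor of the same family, PGRP-LC by name, had 27.5 RPM in 932 and 21.7 RPM in HY, and a further peptidoglycan recognition protein (BGIBMGA000583) had 3.58 RPM in 932 and 5.52 RPM in HY.

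Beta-1,3-glucan recognition proteins, which bind fungal and bacterial glucans and start the phenoloxidase cascade, went both ways. BGRP2 had 1.14 RPM in 932 and 18.4 RPM in HY, and with heat 0.69 RPM in 932 and 9.66 RPM in HY. BGRP1, whose product name the list pattern did not match, had 0.65 RPM in 932 and 35.2 RPM in HY, and with heat 2.92 RPM in 932 and 60.6 RPM in HY. BGRP3 was listed at 0 in 932 and had 1.38 RPM in HY. In the RefSeq gene order BGRP3, BGRP1 and BGRP2 follow each other with 0 protein-coding genes between them, and all 3 were lower in 932. BGRP4, in contrast, had 321 RPM in 932 and 1.72 RPM in HY, with the highest log2 ratio of all named genes at 6.89. After heat it was on the other side, with 15.4 RPM in heated 932 and 44.1 RPM in heated HY.

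Effectors had few tags. Hemolin, an immunoglobulin-domain protein of the blood and fat body, was listed at 0 in 932 and had 10 RPM in HY, and with heat 0.51 RPM in 932 and 87.1 RPM in HY. Lysozyme, which cuts bacterial peptidoglycan, had 7 RPM in 932 and 24.7 RPM in HY, and with heat 25.7 RPM in 932 and 26.3 RPM in HY. The peptides moricin, with 1.21 RPM, and lebocin-3, with 1.9 RPM, were above 0 in HY and listed at 0 in 932. Both lay near the floor of 1 RPM. Hemolin-interacting protein had 15.5 RPM in 932 and 3.62 RPM in HY, and it and BGRP4 were the 2 higher members. MG7, a protein of unstated function, had the second-highest log2 ratio of the named genes at 6.62. It had 672 RPM in 932 and 5.86 RPM in HY without heat, and with heat 91.3 RPM in 932 and 51 RPM in HY.

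Serpins and other protease inhibitors, which restrain proteases of the immune cascades, had 1 of 7 members higher and 4 lower, with a median log2 ratio of -1.03. Serpin-5 had 3.42 RPM in 932 and 56.6 RPM in HY, and with heat 2.4 RPM in 932 and 49.1 RPM in HY. Serpin-12 was listed at 0 in 932 and had 11.4 RPM in HY, and was listed at 0 in heated 932 and had 21.8 RPM in heated HY. Serpin-2 had 9.94 RPM in 932 and 29.3 RPM in HY, and with heat 6.86 RPM in 932 and 36.6 RPM in HY. These 3 inhibitors were lower in 932 in both pairs.

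Detoxification families did not go one way. Cytochrome P450 enzymes, which oxidise plant toxins and hormones, had 3 of 11 members higher and 4 lower, with a median log2 ratio of 0.20. Cyp9a20 had 80.5 RPM in 932 and 4.14 RPM in HY, and with heat 32.9 RPM in 932 and 6.49 RPM in HY. One gene named cytochrome P450 333B11 (BGIBMGA001276) had 69.4 RPM in 932 and 7.93 RPM in HY, and with heat 65 RPM in 932 and 12 RPM in HY, while its namesake BGIBMGA005266 had 12.9 RPM in 932 and 27.8 RPM in HY, and with heat 46 RPM in 932 and 13.2 RPM in HY. Cyp6ab5 had 4.72 RPM in 932 and 48.3 RPM in HY, and with heat 3.09 RPM in 932 and 43.8 RPM in HY. A family 4 subfamily V enzyme (BGIBMGA000005) had 0.49 RPM in 932 and 21.6 RPM in HY, and with heat 0.86 RPM in 932 and 30.8 RPM in HY. So 2 enzymes were on the 932 side and 2 on the HY side in both pairs. Cytochrome P450 4c3 was listed at 0 in 932 and had 3.97 RPM in HY.

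Glutathione S-transferases, which couple glutathione to toxic compounds, had 3 of 10 members higher and 4 lower. GSTe2 of the epsilon class was listed at 0 in 932 and had 17.1 RPM in HY, and was listed at 0 in heated 932 and had 22.6 RPM in heated HY. A microsomal glutathione transferase had 64.3 RPM in 932 and 20.7 RPM in HY, and with heat 118 RPM in 932 and 50.3 RPM in HY. GSTo1 had 1.47 RPM in 932 and 7.76 RPM in HY, and GSTo4, its neighbour in the RefSeq order, had 36.8 RPM in 932 and 18.4 RPM in HY. A second omega 1 model (BGIBMGA011658) had 29.3 RPM in 932 and 53.1 RPM in HY, and GSTs1 had 4.24 RPM in 932 and 5 RPM in HY.

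UDP-glycosyltransferases, which add sugars to toxins and to dietary flavonoids, were all past 2-fold, 4 higher and 2 lower of 6, and each kept its side after heat. UGT40K1 had 49.7 RPM in 932 and 7.07 RPM in HY, and with heat 24 RPM in 932 and 5.99 RPM in HY. UGT40B2P had 11.6 RPM in 932 and was listed at 0 in HY, and UGT41A3 had 10.6 RPM in 932 and 0.34 RPM in HY. UGT33D7 had 7.49 RPM in 932 and was listed at 0 in HY, and had 27.4 RPM in heated 932 and was listed at 0 in heated HY. UGT33D5, which has 1 gene between it and UGT33D7 in the RefSeq order, was listed at 0 in 932 and had 13.1 RPM in HY, and was listed at 0 in heated 932 and had 22.5 RPM in heated HY. Of this pair of related genes, UGT33D7 was above 0 in the 932 libraries alone and UGT33D5 in the HY libraries alone. UGT340C2 had 10.1 RPM in 932 and 49.7 RPM in HY, and with heat 14.8 RPM in 932 and 41 RPM in HY. How the authors' tags were shared among near-identical copies is not given in the sources used here, so values of single members of such families are uncertain.

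Carboxylesterases, which hydrolyse ester toxins and hormones, had 11 of 24 members higher and 3 lower, with a median log2 ratio of 0.96 without heat and 0.81 with it. In both pairs, 9 of the 24 were higher. Alpha-esterase 48 had 16.4 RPM in 932 and 0.34 RPM in HY, and had 13 RPM in heated 932 and was listed at 0 in heated HY. The esterase CCE021b had 58.6 RPM in 932 and 11 RPM in HY, and with heat 33.3 RPM in 932 and 3.66 RPM in HY. CCE006a had 95 RPM in 932 and 28.4 RPM in HY, and with heat 58.9 RPM in 932 and 15 RPM in HY. The antennal esterases by name CXE11 and CXE14 followed: CXE11 had 8.47 RPM in 932 and was listed at 0 in HY, and CXE14 had 10.6 RPM in 932 and 1.72 RPM in HY. The member with most tags, alpha-esterase 40, had 119 RPM in 932 and 54.8 RPM in HY. Beta-esterase 2 was the member furthest the other way, as it had 0.49 RPM in 932 and 8.45 RPM in HY.

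Iron proteins had 3 of 7 members higher and 1 lower. A ferritin precursor subunit (BGIBMGA008768), part of the iron storage shell, had 306 RPM in 932 and 54.3 RPM in HY, and with heat 342 RPM in 932 and 37.3 RPM in HY. The other ferritin precursor (BGIBMGA008780), its neighbour in the RefSeq order, had 805 RPM in 932 and 706 RPM in HY. Transferrin, the iron carrier of the blood, had 19.4 RPM in 932 and 2.24 RPM in HY, and with heat 1.72 RPM in 932 and 3 RPM in HY. Of 2 zinc/iron transporters by name, BGIBMGA005005 had 3.58 RPM in 932 and was listed at 0 in HY, and BGIBMGA012371 was listed at 0 in 932 and had 1.21 RPM in HY. An NFU1 iron-sulfur scaffold homologue had 15.8 RPM in 932 and 11.7 RPM in HY, and a lactotransferrin by name had 3.75 RPM in 932 and 3.45 RPM in HY. Of 10 antioxidant genes 1 was higher and none lower. A thioredoxin-like protein had 20.9 RPM in 932 and 3.28 RPM in HY, and Jafrac1, a peroxiredoxin with the most tags of the list, had 297 RPM in 932 and 219 RPM in HY. The 4 others named by the rule, of the thioredoxin and peroxiredoxin systems, had log2 ratios between -0.22 and 0.80.

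**Figure D4:**
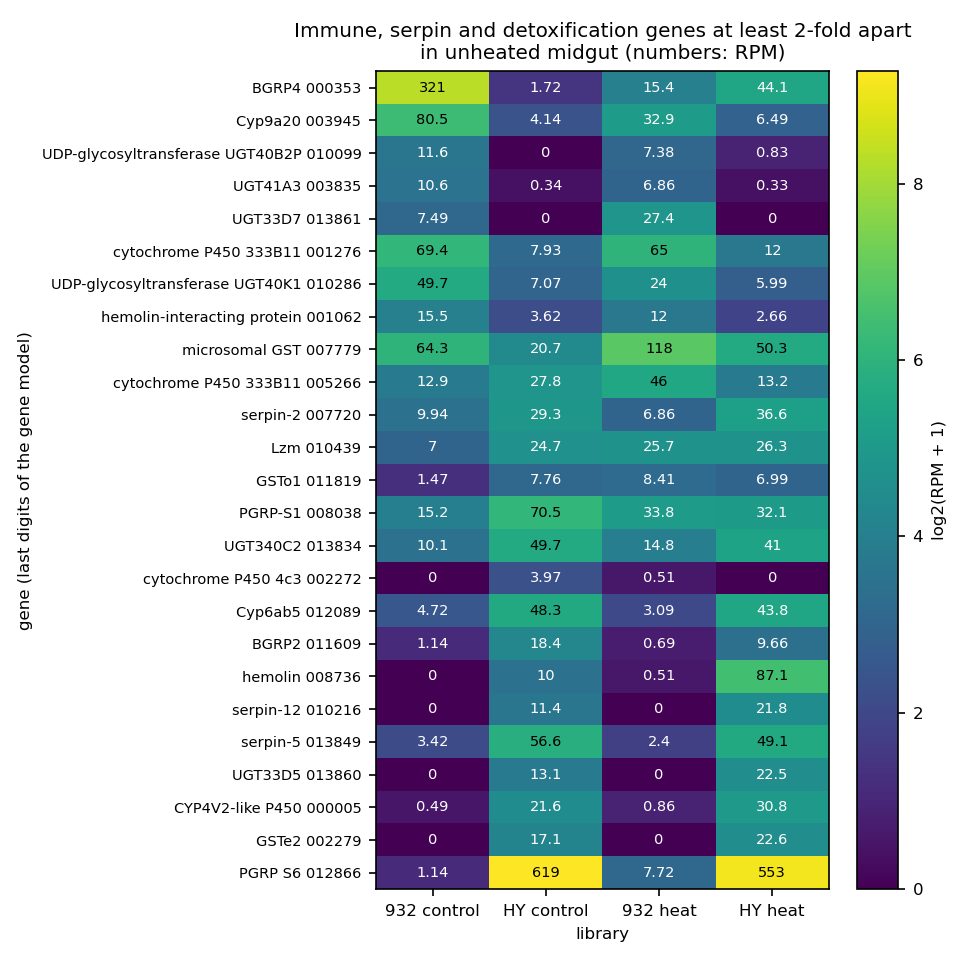
RPM of 25 immune, serpin and detoxification genes that were at least 2-fold apart in unheated midgut, 1 row per gene with the value printed, in 4 columns for 932 control, HY control, 932 heat and HY heat; the colour follows log2 of RPM + 1. PGRP S6 has 1.14 RPM in 932 control and 619 RPM in HY control, BGRP4 has the opposite pattern, and UGT33D5 and UGT33D7 are each listed at 0 in 1 variety with and without heat.

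Ribosomal proteins were mostly level. Of 71 members none was higher and 4 were lower, with a median log2 ratio of 0.05. RpL32, a protein of the large subunit often used as a reference gene, was listed at 0 in 932 and had 788 RPM in HY, and with heat 0.34 RPM in 932 and 1138 RPM in HY. RpSA had 6.68 RPM in 932 and 27.9 RPM in HY, RpL22 had 272 RPM in 932 and 584 RPM in HY and RpL20 had 26.7 RPM in 932 and 55.2 RPM in HY, and these were the other lower members. RpP1 had 7.98 RPM in 932 and 16.6 RPM in HY, and RpL27 had 6.84 RPM in 932 and 14.7 RPM in HY. The most tags were those of RpL37A, which had 2395 RPM in 932 and 2842 RPM in HY, RpL10, which had 2761 RPM in 932 and 1934 RPM in HY, and RpL3, which had 1733 RPM in 932 and 2116 RPM in HY. Without RpL32 the median of the remaining 70 was 0.06.

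Other basic cell functions also had single genes whose listed tags were nearly confined to 1 variety in these libraries. Whether the transcripts of these genes and of RpL32 were absent from the other variety was not tested. Srp9, a protein of the signal recognition particle that targets secreted proteins, had 90.2 RPM in 932 and was listed at 0 in HY, and had 236 RPM in heated 932 and was listed at 0 in heated HY. The Sec61 gamma subunit, part of the channel through which those proteins pass, had 2.28 RPM in 932 and 64.8 RPM in HY, and with heat 1.54 RPM in 932 and 56.8 RPM in HY. The coatomer zeta subunit, of the vesicle coat, was listed at 0 in 932 and had 25.5 RPM in HY, and was listed at 0 in heated 932 and had 22.1 RPM in heated HY. A putative Hsp70-interacting protein (BGIBMGA010635) had 1.95 RPM in 932 and 138 RPM in HY, and with heat 2.23 RPM in 932 and 158 RPM in HY. The regulatory subunit R1 of cAMP-dependent protein kinase had 0.33 RPM in 932 and 22.2 RPM in HY, and with heat 0.34 RPM in 932 and 36.8 RPM in HY. In each of these 5 genes the heated pair showed the same variety high and the same variety near 0.

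The same held for several enzymes and membrane proteins. A glycosyl hydrolase family 31 protein was listed at 0 in 932 and had 40.7 RPM in HY, and was listed at 0 in heated 932 and had 29 RPM in heated HY. An inward rectifier potassium channel had 1.14 RPM in 932 and 87.8 RPM in HY, and with heat 1.89 RPM in 932 and 146 RPM in HY. A permease of the major facilitator superfamily had 0.33 RPM in 932 and 36.7 RPM in HY, and with heat 1.03 RPM in 932 and 28.6 RPM in HY. Vanin-like protein 1, of a pantetheine-hydrolysing family, had 0.33 RPM in 932 and 29.5 RPM in HY, and with heat 1.03 RPM in 932 and 33.3 RPM in HY. On the 932 side SDR39U1, an epimerase family protein, had 22.6 RPM in 932 and was listed at 0 in HY, and with heat 19.9 RPM in 932 and 0.5 RPM in HY. The hatching enzyme-like protein Hel, of unstated role in the larval gut, was different: it had 212 RPM in 932 and 5.69 RPM in HY, and with heat 42.2 RPM in 932 and 43.1 RPM in HY, level after heat.

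Translation factors had 7 of 32 members lower, where 15.1% of all genes were, and none higher, where 17.9% were, with a median log2 ratio of -0.33. The cap-binding initiation factor 4E-1 had 5.7 RPM in 932 and 58.1 RPM in HY, and with heat 5.32 RPM in 932 and 28 RPM in HY. Subunits B and C of initiation factor 3 were lower too, as eIF3-S9 had 41.7 RPM in 932 and 125 RPM in HY and eIF3c had 11.9 RPM in 932 and 31.7 RPM in HY. Initiation factor 2A had 1.47 RPM in 932 and 6.38 RPM in HY, and the epsilon subunit of eIF-2B, an exchange factor, had 9.94 RPM in 932 and 25 RPM in HY. Elongation factor 1-beta' had 3.91 RPM in 932 and 10.3 RPM in HY. The factor with most tags, 5A, was within 2-fold, as it had 438 RPM in 932 and 540.4 RPM in HY. Of 25 initiation factor models 6 were lower, and of 7 elongation factor models 1.

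Splicing and RNA-binding genes had 1 of 27 members higher and 8 lower, with a median log2 ratio of -0.54 in the unheated pair and -0.53 in the heated pair. Of 5 models for U3 and H/ACA particles, which mature ribosomal RNA, 4 were lower. IMP3 had 3.58 RPM in 932 and 14.8 RPM in HY, IMP4 had 1.95 RPM in 932 and 5.69 RPM in HY, Mpp10 had 2.12 RPM in 932 and 5.35 RPM in HY, and subunit 4 of the H/ACA complex had 0.49 RPM in 932 and 3.28 RPM in HY. The splicing protein Spx had 4.4 RPM in 932 and 11.4 RPM in HY, and Sm D2, of the core of spliceosomal particles, had 0.81 RPM in 932 and 3.1 RPM in HY. The member with most tags, a core small nuclear ribonucleoprotein, had 29.5 RPM in 932 and 41.6 RPM in HY. Of 15 proteasome genes 1 was higher, subunit 12 of the 26S particle, which had 11.7 RPM in 932 and 2.41 RPM in HY, and with heat 14.9 RPM in 932 and 1.5 RPM in HY. The other named proteasome members had log2 ratios between 0.47 and 0.79.

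Heat shock genes did not separate the varieties as a group before heat. Of 4 small heat shock proteins, which hold unfolding proteins in solution, 1 was higher and 1 lower. The higher, Hsp23.7, had 12.9 RPM in 932 and 2.41 RPM in HY, and with heat 210.3 RPM in 932 and 12.7 RPM in HY. The lower, heat shock protein 25.4 by name, was listed at 0 in 932 and had 2.24 RPM in HY. Hsp21.4 had 72.3 RPM in 932 and 41.9 RPM in HY, and a small heat shock protein (BGIBMGA005755) had 14.8 RPM in 932 and 11 RPM in HY, and with heat 47.7 RPM in 932 and 15.7 RPM in HY. Of 12 members of the HSP70, HSP90 and HSP60 list 1 was higher and 2 were lower, with a median log2 ratio of 0.12. The higher was Cdc37, which brings kinases to HSP90; it had 12.7 RPM in 932 and 5 RPM in HY, and with heat 22.8 RPM in 932 and 3.16 RPM in HY. The lower were the Hsp70-interacting protein above and Hsp90 (BGIBMGA004612), which had 0.81 RPM in 932 and 3.97 RPM in HY, and with heat 35.2 RPM in 932 and 16.3 RPM in HY.

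The other members of the HSP70, HSP90 and HSP60 list were within 2-fold without heat. Hsc70-4, the constitutive HSP70 with most tags, had 746 RPM in 932 and 596 RPM in HY, and heat shock protein 90 beta by name had 193 RPM in 932 and 132 RPM in HY. Heat shock protein 70-3 had 13.2 RPM in 932 and 12.2 RPM in HY, and with heat 39.8 RPM in 932 and 10.3 RPM in HY. Heat shock protein 70-14 had 6.19 RPM in 932 and 5.52 RPM in HY, and a heat shock cognate 70 protein had 3.09 RPM in 932 and 4.31 RPM in HY. TRAP1, the HSP90 of mitochondria, had 19.9 RPM in 932 and 18.6 RPM in HY, and an HSP70 binding protein had 6.68 RPM in 932 and 5 RPM in HY, and with heat 40.7 RPM in 932 and 9.66 RPM in HY.

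Of 2 signalling peptides, each was seen in 1 variety without heat. AST-A, the precursor of allatostatin A peptides made by gut endocrine cells and neurons, was listed at 0 in 932 and had 22.4 RPM in HY, and with heat 0.86 RPM in 932 and 1.67 RPM in HY. NPF1, a neuropeptide F precursor (BGIBMGA006281), had 18.1 RPM in 932 and was listed at 0 in HY, and had 22.99 RPM in heated 932 and was listed at 0 in heated HY. NPF1, like other genes that are given here to spell out a small count or the end of a list, was chosen after its values were seen. Genes of juvenile hormone and ecdysone had 8 of 19 members higher and 1 lower, with a median log2 ratio of 0.57. E75, a nuclear receptor gene that responds to ecdysone, had 16.6 RPM in 932 and 3.97 RPM in HY. Jheh-lp4, of the family that breaks down juvenile hormone, had 141 RPM in 932 and 44.5 RPM in HY. Ethr, the receptor of ecdysis triggering hormone, had 19.1 RPM in 932 and 6.38 RPM in HY. Of the 8 higher members, 3 had under 3 RPM in 932 and were listed at 0 in HY. A juvenile hormone-inducible protein by name had 3.42 RPM in 932 and 1.03 RPM in HY, and an ecdysone oxidase by name had 3.58 RPM in 932 and 1.21 RPM in HY. A 3-dehydroecdysone reductase had 35.2 RPM in 932 and 20.7 RPM in HY, and Jhdk, juvenile hormone diol kinase, which had the most tags, had 819 RPM in 932 and 550.4 RPM in HY.

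Cuticle, muscle and fat body proteins gave smaller lists. Of 6 cuticle proteins none was higher and 2 were lower. CPH45 had 1322 RPM in 932 and 1902 RPM in HY, and with heat 896 RPM in 932 and 57.3 RPM in HY. Of 2 models named CPH43, BGIBMGA005302 had 297 RPM in 932 and 743 RPM in HY, and BGIBMGA013778 had 1085 RPM in 932 and 841 RPM in HY. CPR127 and larval cuticle protein 1 were near the floor, as CPR127 had 3.09 RPM in 932 and 1.38 RPM in HY and larval cuticle protein 1 had 2.61 RPM in 932 and 3.45 RPM in HY. Of 17 muscle genes 1 was higher and 2 lower, with a median of 0.28. Tropomyosin-2 had 81.8 RPM in 932 and 175 RPM in HY, caldesmon by name had 4.56 RPM in 932 and 13.1 RPM in HY, and glycogen phosphorylase of muscle had 3.09 RPM in 932 and was listed at 0 in HY. Muscle myosin heavy chain had 258 RPM in 932 and 153 RPM in HY, titin-like protein had 37.8 RPM in 932 and 25.9 RPM in HY, a second tropomyosin had 8.14 RPM in 932 and 3.62 RPM in HY and the muscle LIM protein had 314 RPM in 932 and 219 RPM in HY.

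Of 4 genes in the fat body list 1 was higher and 1 lower. The higher, a protease precursor of 30K proteins by name (BGIBMGA012788) and not itself a 30K lipoprotein, had 45.3 RPM in 932 and 9.31 RPM in HY. Lp-c6, a 30 kDa lipoprotein of the blood, was listed at 0 in 932 and had 9.48 RPM in HY, and after heat had 10.5 RPM in heated 932 and was listed at 0 in heated HY. The storage protein Sp2, which the list pattern did not match, was also lower in unheated 932. It had 1.47 RPM in 932 and 9.31 RPM in HY, and with heat 8.58 RPM in 932 and 0.33 RPM in HY. Apolipophorin III, a lipid carrier, had 23.1 RPM in 932 and 13.4 RPM in HY, and an apolipophorin precursor had 3.42 RPM in 932 and 4.14 RPM in HY. In haemocyte-linked genes, hemolin and its interacting protein went opposite ways as given above, and the prophenoloxidase activating enzyme had 2.77 RPM in 932 and 0.52 RPM in HY. Xanthine dehydrogenase, the only Malpighian tubule member, had 30.5 RPM in 932 and 20.4 RPM in HY. Of 2 chemosensory genes neither passed 2-fold, and chemosensory protein 10 had 3.26 RPM in 932 and 1.21 RPM in HY. Of 7 transposon-related genes 1, an endonuclease-reverse transcriptase, was lower: it was listed at 0 in 932 and had 3.79 RPM in HY. The Ty3-like polyprotein with most tags had 49.7 RPM in 932 and 34.7 RPM in HY.

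Fatty acid and sterol genes had 4 of 17 members higher and 2 lower, near the 17.9% and 15.1% of all genes, with a median log2 ratio of -0.18. ACBP-like, an acyl-CoA binding protein and the gene with most tags in the HY library at 5.46% of listed RPM, had 3579.6 RPM in 932 and 6315 RPM in HY, and with heat 3394 RPM in 932 and 5445 RPM in HY. A desaturase (BGIBMGA010611), which puts double bonds into fatty acids, had 7.49 RPM in 932 and 34.8 RPM in HY. A fatty acid binding protein (BGIBMGA012890) had 21 RPM in 932 and 5.35 RPM in HY, and with heat 7.55 RPM in 932 and 51.1 RPM in HY. A short-chain acyl-CoA dehydrogenase by name had 13 RPM in 932 and 3.28 RPM in HY, 3HCD, of beta-oxidation, had 17.4 RPM in 932 and 28.8 RPM in HY, and 24-dehydrocholesterol reductase, of sterol conversion, had 55.4 RPM in 932 and 20.9 RPM in HY.

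The 10 genes with most tags in each library overlapped in part. Besides genes already given, both lists held a single domain major allergen protein, which had 2336 RPM in 932 and 1815 RPM in HY, and the unnamed BGIBMGA008328, which had 3103 RPM in 932 and 3431 RPM in HY. The unnamed BGIBMGA003322 was among the first 10 in 932 alone, as it had 5948 RPM in 932 and 1052 RPM in HY, and with heat 2970.0 RPM in 932 and 3603 RPM in HY. The unnamed BGIBMGA004905 was among the first 10 in HY alone, as it had 1156 RPM in 932 and 2055 RPM in HY. The 20 genes with most tags held 48.7% of the listed RPM in 932 and 35.0% in HY.

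Without heat, 830 genes were above 0 in 932 alone and 656 in HY alone. Those with at least 3 RPM were about as many on each side. With at least 3 RPM in 932, 49 genes were listed at 0 in HY, and 29 of them were also listed at 0 in heated HY. Of all 5558 gene models, 1605 were listed at 0 in heated HY and 1820 in heated 932. Of the 49, 46 were above 0 in heated 932 and 1 reached 3 RPM in heated HY. With at least 3 RPM in HY, 41 genes were listed at 0 in 932, and 25 of them were also listed at 0 in heated 932. Of the 41, 38 were above 0 in heated HY and 2 reached 3 RPM in heated 932. The genes with most tags among these, beyond those named above, encode proteins with no product name. BGIBMGA003461 had 36.6 RPM in 932 and was listed at 0 in HY, and had 34.5 RPM in heated 932 and was listed at 0 in heated HY, and BGIBMGA005953 had 24.8 RPM in 932 and was listed at 0 in HY, and had 11.5 RPM in heated 932 and was listed at 0 in heated HY. BGIBMGA007269 had 21.3 RPM in 932 and was listed at 0 in HY, and had 6.52 RPM in heated 932 and was listed at 0 in heated HY. BGIBMGA007593 differed, as it had 42.2 RPM in 932 and was listed at 0 in HY, and was listed at 0 in heated 932 and had 0.67 RPM in heated HY, and BGIBMGA010981 had 21 RPM in 932 and was listed at 0 in HY, and was listed at 0 in both heated libraries. The highest log2 ratio of all 2780 genes, 8.35, was that of BGIBMGA007733, which has no product name and was chosen after its values were seen. It had 551 RPM in 932 and 0.69 RPM in HY, and with heat 13.9 RPM in 932 and 36.1 RPM in HY. On the HY side BGIBMGA000237 was listed at 0 in 932 and had 27.6 RPM in HY, and was listed at 0 in heated 932 and had 23.3 RPM in heated HY. BGIBMGA001666 was listed at 0 in 932 and had 26.4 RPM in HY, and with heat 1.37 RPM in 932 and 43.5 RPM in HY, and BGIBMGA005523 was listed at 0 in 932 and had 18.4 RPM in HY, and with heat 1.03 RPM in 932 and 37.6 RPM in HY.

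The variety ratio was then read in the heated pair, which shares no library with the unheated pair. Over the 2990 genes above the floor there, 421 (14.1%) were at least 2-fold higher in 932 and 621 (20.8%) lower. On the 2780 genes compared without heat the heated counts were 338 higher (12.2%) and 511 lower (18.4%), with a median log2 ratio of -0.22. Of the 499 genes higher in unheated 932, 215 (43.1%) were also higher after heat, which is 63.6% of the 338. Another 271 lay within 2-fold and 13 were lower. Of the 419 lower genes 241 (57.5%) were also lower, which is 47.2% of the 511, while 167 lay within 2-fold and 11 were higher. Among genes past 4-fold, 107 of 149 higher genes (71.8%) and 94 of 110 lower genes (85.5%) were past 2-fold the same way after heat. The median log2 ratio of the 499 higher genes was 1.49 without heat and 0.73 with it, and that of the 419 lower genes was -1.41 without heat and -1.12 with it. Across the 2780 genes, which are not independent replicates and share the 2 libraries of each ratio, Pearson's r of the 2 ratios was 0.67 and Spearman's rho 0.58, given as a description.

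**Figure D5:**
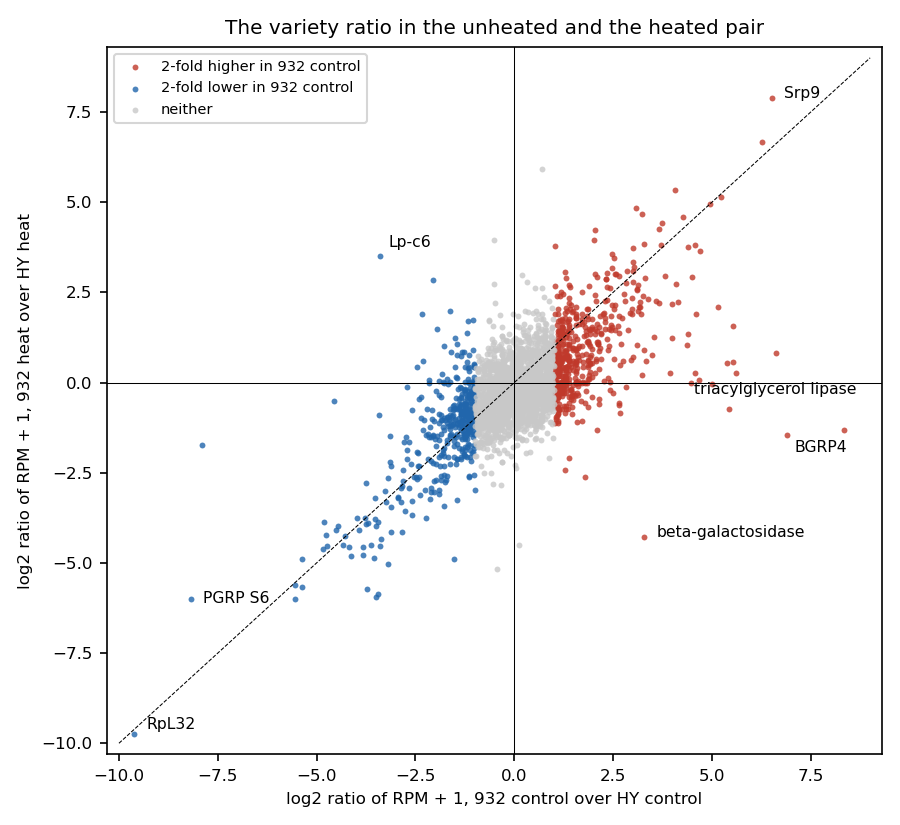
Log2 ratio of RPM + 1 in the heated pair (932 heat over HY heat, vertical) against the unheated pair (932 control over HY control, horizontal), 1 point per gene for the 2780 genes, red where 932 was at least 2-fold higher without heat, blue where it was at least 2-fold lower and grey for neither; the dashed line marks equal ratios. Of the genes past 4-fold without heat, 107 of 149 higher and 94 of 110 lower genes were past 2-fold the same way after heat; triacylglycerol lipase (5.60 without heat, 0.25 with it) lies near 0 on the vertical axis, and Gal (beta-galactosidase), BGRP4 and Lp-c6 lie on opposite sides of 0 in the pairs.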

How the data were processed

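RNA of whole midguts was sequenced in 4 libraries, 1 per group. The deposited values are named TPM in the table's header, but per the file headers and values they are tags per 1000000 tags of the library (RPM), not corrected for gene length: they are whole multiples of 1 tag within 0.0051 RPM in 100% of cases. Sums over a family and ranks by most tags are therefore shares of tags, not transcript levels compared between genes. The sequencing protocol beyond a standard Illumina library, the aligner, the genome build and the sharing of tags among similar genes are not given in the sources used here. Gene names are the best hits in the deposited table, and 895 of 905 Bombyx mori RefSeq hits were matched to RefSeq symbols (ASM3026992v2), which was used for symbols and gene order only. No sequence is printed.

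Ratios are log2 of (932 + 1)/(HY + 1) over genes with at least 1 RPM in either unheated library. Tags were recovered from RPM for the exact 95% intervals, which cover counting error only. The 35 gene lists are product-name patterns, and members and lists were chosen with earlier results of these data known. Named genes are the 15 highest and 15 lowest ratios among named products with at least 3 RPM, the 10 genes with most tags per library, up to 6 members of each list with the largest ratios plus the one with most tags, the 8 highest of the genes listed at 0 in the other library, and all heat shock and antimicrobial members with at least 3 RPM. Scripts were tested on simulated data and run in Python 3.11.15, with pandas 2.3.3 and numpy 2.4.6 for the ratios, scipy 1.17.1 for the intervals and matplotlib 3.10.9 for the figures. Other scalings, floors, added values and rules were tried.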

Additional observations from a re-analysis of the deposited data

Results flagged for a closer look

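Of the 2780 genes, 24 were past 2-fold in opposite directions in the unheated and the heated pair, 13 higher and 11 lower in unheated 932. The 10 with a product name and at least 3 RPM are given here as log2 ratios of RPM + 1, 932 over HY. The difference between the pairs was not tested, since each rests on 1 library per group. BGRP4, a glucan recognition protein, had 6.89 without heat and -1.46 with heat. Gal, a beta-galactosidase, had 3.27 without heat and -4.29 with heat, as 176.5 RPM in heated HY was its highest value. A fatty acid binding protein (BGIBMGA012890) had 1.79 without heat and -2.61 with heat. Chitin synthase B (BGIBMGA002960), which makes chitin for the gut lining, had 1.60 without heat and -1.09 with heat.

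The other 6 were lower in unheated 932. Lp-c6, a blood lipoprotein, had -3.39 without heat and 3.52 with heat, and was listed at 0 in 932 control and in HY heat. Sp2, a storage protein of the fat body, had -2.06 without heat and 2.85 with heat. A putative venom acid phosphatase by name (BGIBMGA006176) had -2.33 without heat and 1.89 with heat. Ldh, lactate dehydrogenase, had -1.17 without heat and 1.70 with heat. Hsp90 had -1.46 without heat and 1.06 with heat. Cytochrome P450 333B11 (BGIBMGA005266) had -1.05 without heat and 1.73 with heat.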

How the results depend on the processing

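No paired analysis was possible because each group has 1 library, and no replicate could be left out. Genes at least 2-fold apart numbered 499 higher and 419 lower in 932 as reported. Rescaling changed this little, with 524 and 433 by median-of-ratios size factors, 473 and 437 centred on the median gene, and 566 and 398 with totals that leave out the 20 most abundant genes. Adding 0.1 RPM gave 648 and 579. Fewer genes passed under stricter rules, with 135 higher and 88 lower after adding 10 RPM, 215 and 145 with a floor of 10 RPM, 149 and 110 by a 4-fold rule, 252 and 190 by whole tag intervals, and 215 and 241 when the heated pair had to go the same way. With genes above 0 in both libraries, an alternative chosen after seeing the data, they were 346 and 258. With no floor the counts of 499 and 419 cannot differ, because a gene under 1 RPM in both libraries cannot pass 2-fold. The median log2 ratio of all genes ran from 0 (centred) to 0.17 (floor of 10 RPM). Of the recomputed ratios of named genes 951 moved by no more than the half-width of their counting interval and 104 by more. Of the 104, 68 were among the 211 genes with 10 RPM added, which shrinks genes low in 1 library by construction (peritrophin 1, BGIBMGA001504, 2.78 against 5.53). The 951 do not show that genes listed at 0 in 1 library are stable, since their interval is open at 1 end. Srp9 was counted among the 951 at 3.33 with 10 RPM added, against 6.51 as reported. Of the recomputed list medians 215 stayed within 1.5 times and 28 moved further with no called sign turned. That of haemocyte genes, 1.31, became -0.81 with a floor of 10 RPM, which leaves 2 members. Signs also turned for amino acid transporters (-0.37) and transposon genes (0.51) with that floor, and for cuticle (0.37) and chemosensory genes (-0.62) with no floor. Counting error limits genes of a few tags, and a listing at 0 may be 1 tag.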
